A study of Mus musculus with 9 samples.

Results

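MA-10 cells given forskolin together with AICAR were compared with vehicle-treated cells, to describe the net state that both compounds leave: which transcripts stayed above control and which lay below it. The members were 6 of the 9 arrays of the series, chosen by their titles: 3 arrays of cells with both compounds and 3 control arrays. Control cells received DMSO (their titles speak of no treatment, their treatment field of DMSO), and the other cells received 10 µM forskolin with 1 mM AICAR. All cells were kept in serum-free medium during the 1.5 h of treatment. Arrays of cells with 10 µM forskolin alone for the same 1.5 h (n = 3) entered the same fit, and their values are given for some of the named genes. Both contrasts share the control arrays. Cells with AICAR alone were not analysed here, so a difference from control cannot be divided between the compounds.

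MA-10 is a clonal mouse Leydig tumour cell line, and Leydig cells are the cells of the testis that make testosterone when luteinizing hormone raises their cAMP. Forskolin activates adenylyl cyclase directly, and the cAMP it produces activates protein kinase A, which phosphorylates CREB and switches on immediate early genes and, after them, the steroid-making program headed by Star. AICAR enters cells and is converted there to ZMP, which imitates AMP and so activates AMPK, the kinase that slows energy-consuming pathways when ATP is low. Forskolin with AICAR therefore gives the cell a signal to make steroids and a signal of low energy at the same time.

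The sequences that follow belong to the microRNA genes and cAMP-responsive genes on which the results turn, and all were taken from RefSeq tables of the mouse assembly GRCm38.p6. The array probes are assigned to a microRNA gene, not to one of its mature arms, so every value given below for a microRNA is that of its gene. The first set is from the imprinted Dlk1-Meg3 region of chromosome 12, whose microRNA genes fell furthest. The seed, bases 2 to 8, which pairs with target mRNAs, is in capitals.
miR-127-3p: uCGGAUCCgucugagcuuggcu
miR-379-5p: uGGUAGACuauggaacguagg
miR-379-3p: uAUGUAACaugguccacuaacu
miR-411-3p: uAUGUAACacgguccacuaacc
miR-380-3p: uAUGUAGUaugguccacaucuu
miR-323-3p: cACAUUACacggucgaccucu
miR-329-3p: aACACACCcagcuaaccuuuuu
The 3' arms of miR-379 and miR-411 carry the same seed, AUGUAAC. The genes of this set lie on the plus strand, among them Mir127 at chr12:109592846-109592915, Mir379 at chr12:109709060-109709125, Mir411 at chr12:109710175-109710256 and Mir380 at chr12:109711803-109711863.

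The second set comes from families in which the genes differed in direction, and from Mir99a at chr16:77598936-77599000, the microRNA gene with the largest rise.
miR-99a-5p: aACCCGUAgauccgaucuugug
miR-181b-5p: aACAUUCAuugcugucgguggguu
miR-181d-5p: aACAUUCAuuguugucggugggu
let-7d-5p: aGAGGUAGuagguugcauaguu
let-7e-5p: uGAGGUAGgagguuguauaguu
The seed ACAUUCA is shared by miR-181b-5p and miR-181d-5p, and GAGGUAG by the let-7 members.

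The third set shows the 250 bases before the transcription start of Nr4a1 (chr15:101266596-101266845), Nr4a3 (chr4:48045055-48045304) and Fos (chr12:85473640-85473889), which stayed above control, and of Errfi1 (chr4:150854820-150855069), which fell below it. All 4 genes are on the plus strand. A gene can have several annotated starts. For Nr4a1, Nr4a3 and Fos the window with the lowest coordinate is shown. For Errfi1 a later window was picked by hand, and its other windows are not shown. Capitals mark the CREB core motif TGACG on either strand (CGTCA is its reverse complement). In Errfi1 the capitals mark the palindrome TGACGTCA, the complete cAMP response element, which contains the core motif on both strands.
Nr4a1: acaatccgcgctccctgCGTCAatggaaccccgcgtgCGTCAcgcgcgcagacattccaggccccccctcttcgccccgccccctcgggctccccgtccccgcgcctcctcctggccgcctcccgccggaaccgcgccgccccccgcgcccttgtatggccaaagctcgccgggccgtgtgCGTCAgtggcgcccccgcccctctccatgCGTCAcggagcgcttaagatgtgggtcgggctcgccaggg
Nr4a3: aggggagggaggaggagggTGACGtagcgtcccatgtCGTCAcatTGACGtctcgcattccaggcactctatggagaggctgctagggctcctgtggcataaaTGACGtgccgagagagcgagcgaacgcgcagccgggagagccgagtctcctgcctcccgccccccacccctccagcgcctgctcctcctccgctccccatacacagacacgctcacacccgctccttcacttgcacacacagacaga
Fos: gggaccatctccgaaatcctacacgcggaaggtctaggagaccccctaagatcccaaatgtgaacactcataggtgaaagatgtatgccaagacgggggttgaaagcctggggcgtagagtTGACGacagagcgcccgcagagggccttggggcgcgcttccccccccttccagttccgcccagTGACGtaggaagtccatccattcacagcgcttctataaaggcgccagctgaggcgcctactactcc
Errfi1: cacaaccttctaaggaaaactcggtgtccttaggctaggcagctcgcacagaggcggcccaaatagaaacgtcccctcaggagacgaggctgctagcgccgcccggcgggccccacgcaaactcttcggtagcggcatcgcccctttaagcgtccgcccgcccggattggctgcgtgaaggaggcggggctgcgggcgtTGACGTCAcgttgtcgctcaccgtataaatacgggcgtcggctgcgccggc
The core motif begins at −233, −213, −69 and −40 in Nr4a1, at −231, −213, −205 and −147 in Nr4a3, and at −129 and −66 in Fos, where −1 is the base before the start. Windows from 250 bases before to 50 bases after a start were available for 15614 of the tested genes, and 27.98% of those genes had the core motif on either strand. A gene with several windows was counted by the window with the most matches, so genes with more starts had more opportunity to match. Of the 18 genes that rose at least 1.5-fold, 14 had a window and 8 of these held the motif (57.1%), and of the 119 that fell as far, 86 had a window and 22 held it (25.6%). The complete element was in the windows of 2.72% of all genes, of 1 of the 14 (Ccnl1) and of 3 of the 86. At least 4 copies of the core motif occurred in 59 genes (0.378%), among them Nr4a1 and Nr4a3. A match is a description of the sequence and not evidence that CREB was bound there.

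The 9 arrays had medians between 7.14 and 7.19 on the log2 scale, and no pair was identical. The range between the quartiles was narrower with both compounds (3.42, 3.35 and 3.34) than in control (3.43, 3.47 and 3.48). The part of this in small differences was not tested. Within the groups, 46.0% of the squared deviations lay on one axis, which set replicate 1 of the cells with both compounds (loading −0.60) against replicate 3 (0.56). Replicate 3 of control (−0.31) and of forskolin alone (−0.34) lay on the side of that replicate 1. The arrays of cells with both compounds are called AICAR replicates. No label states that the replicates were separate cultures, and every p-value therefore reflects only the spread between arrays, which may be technical. In bulk RNA, fewer cells of a type and less RNA per cell cannot be told apart. Of 12 Leydig cell markers 9 were matched to a tested gene, with control means from 8.58 for Star to 11.92 for Hsd3b6, all above the median of 7.46 over all genes. Lhcgr, Insl3 and Ren1 were not matched. Of the markers of other cells that a testis holds, the control means of 7 of 12 Sertoli cell, 12 of 13 germ cell, 9 of 10 macrophage, 10 of 11 peritubular and fibroblast and 8 of 10 endothelial markers lay below that median. The highest control mean of each list, in this order, was that of Clu (11.70), Kit (11.37), Cd68 (7.74), Col1a1 (7.82) and Cdh5 (11.97). Values of different probes have no common scale, and no detection calls were used.

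With both compounds the cells kept a small group of strongly raised transcripts and a wider group of lowered ones. Of 19938 genes tested with limma, 18 were called (Benjamini-Hochberg adjusted p under 0.05) and at least 1.5-fold higher than control (0.0903% of genes), and 119 were called and at least 1.5-fold lower (0.597%). At 2-fold or more, 5 genes were higher and 11 lower. Among the 119 were 30 numbered Zfp zinc finger genes, 14 microRNA genes, 17 unnamed or predicted transcripts, 2 olfactory receptor genes, 1 histone gene, 1 small RNA gene and 54 other named genes. Of these 137 genes (0.687%), 118 stayed called whichever 1 of the 6 arrays was left out, 16 higher and 102 lower.

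Counting every size of change, 1739 genes were called (8.72%), 606 higher (3.04%) and 1133 lower (5.68%), with median log2 differences of 0.26 and −0.30. The median over all genes was 0.02. This wider count rested on the arrays used. It was 1030, 795 or 660 without control replicate 1, 2 or 3, and 4741, 682 or 1077 without AICAR replicate 1, 2 or 3, and rises outnumbered falls when AICAR replicate 1 was left out (2675 higher, 2066 lower). With arrays weighted by their agreement, 3578 were higher and 3041 lower. The number at least 1.5-fold changed was less affected, between 112 (without AICAR replicate 3) and 204 (without AICAR replicate 1). Without replicate 3 of every group, 88 were changed that far. Below, a call is said to hold where it passed without each of the 6 arrays in turn. Of the 65 named genes whose calls held, 20 did not pass without replicate 3 of every group (adjusted p 0.051 to 0.12), among them Txnip, Plau, Mir379, Mir323, Mir181b-1, Ccng2, Per1, Ddit3, Adm and Brd2. The control arrays and the arrays with both compounds did not overlap in 29.5% of all genes.

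**Figure D1:**
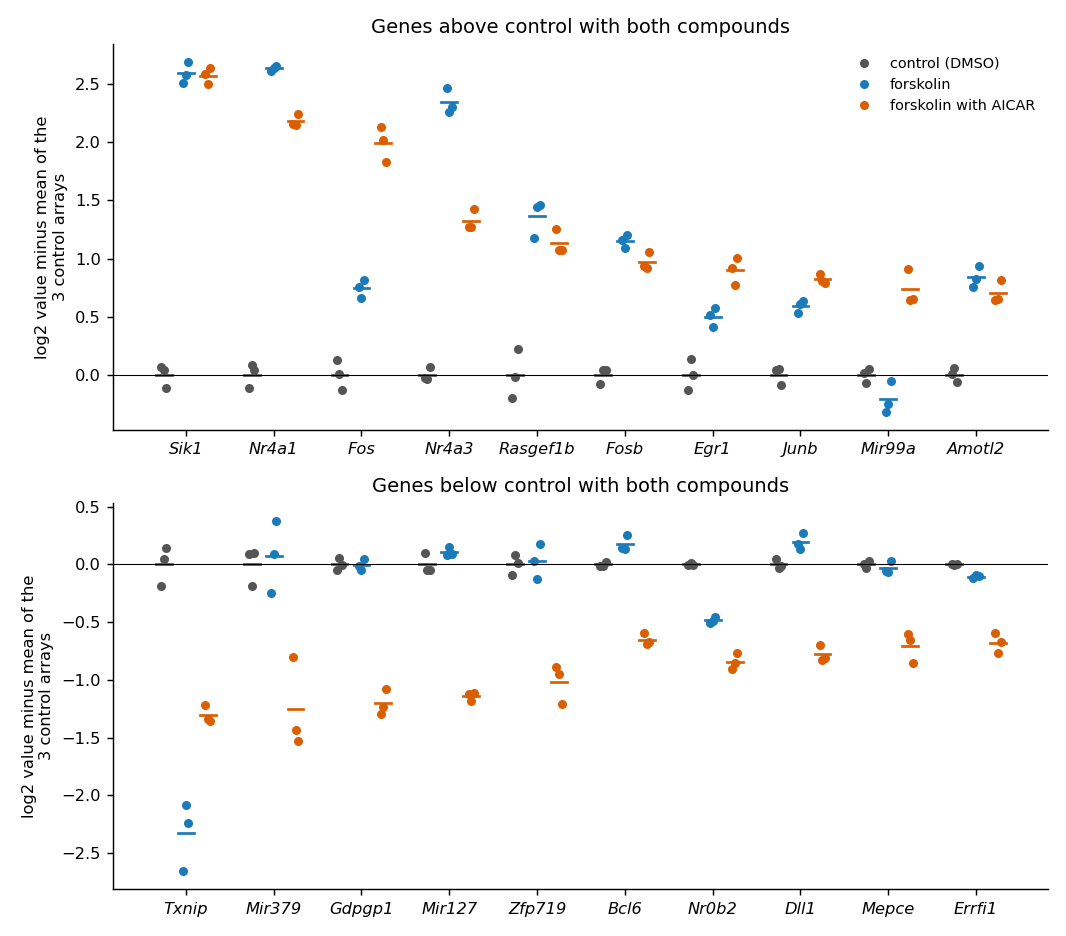
Log2 value of each array minus the mean of the 3 control arrays, for 10 genes above control (upper panel) and 10 below control (lower panel) in cells with both compounds; points are arrays, short lines are group means, and cells with forskolin alone are shown for reference. Each array with both compounds lies outside the range of the control arrays for these 20 genes. The genes with the largest changes were named only if their arrays did not overlap, so for them this separation is no added support. The largest mean differences are those of Sik1, Nr4a1 and Fos above and of Txnip and Mir379 below.

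The transcript furthest above control was that of Sik1, a kinase that is itself induced by cAMP and restrains CREB coactivators. Its log2 values were 7.99, 7.96 and 7.80 in control and 10.50, 10.42 and 10.55 with both compounds. The difference was 2.57 on the log2 scale (5.96-fold; SE 0.07, adjusted p = 8.5e-08), and forskolin alone stood at 2.60 above the same controls. Nr4a1, an orphan nuclear receptor that acts on steroidogenic promoters, had log2 values of 10.24, 10.44 and 10.40 in control and 12.51, 12.50 and 12.60 with both compounds. It rose 4.53-fold (2.18, SE 0.05, adjusted p = 8.5e-08), against a difference of 2.64 with forskolin alone, and the direct difference between these treated groups was −0.46 (adjusted p = 0.0017). Its relative Nr4a3 went from 6.16, 6.15 and 6.26 to 7.46, 7.46 and 7.62. That is a difference of 1.32 (SE 0.07, adjusted p = 1.4e-05), where forskolin alone had 2.34, and the direct difference was −1.02 (adjusted p = 7.8e-05). Both receptors remained well above control, and both by less than with forskolin alone.

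Genes of the AP-1 transcription factor, a dimer of Fos and Jun proteins, were divided. Fos had log2 values of 7.18, 7.06 and 6.92 in control and 9.19, 9.07 and 8.88 with both compounds. Its rise of 3.98-fold (1.99, SE 0.09, adjusted p = 5.2e-06) was larger than the 0.74 seen with forskolin alone, by 1.25 (adjusted p = 0.0001). Fosb rose by 0.97 (SE 0.05, adjusted p = 3e-05) and Junb by 0.82 (SE 0.05, adjusted p = 4.5e-05). Fosl2 rose less, by 0.30 (adjusted p = 0.0026). Jun had control values of 9.75, 9.84 and 9.87 and values of 9.73, 9.47 and 9.67 with both compounds. These lie below every control array but did not pass the test (−0.20, SE 0.07, adjusted p = 0.1), whereas forskolin alone had 0.61. Egr1, a zinc finger factor of the same early wave, went from 7.10, 7.37 and 7.23 to 8.15, 8.01 and 8.24, a rise of 0.90 (SE 0.08, adjusted p = 0.00035).

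The other genes that rose at least 1.5-fold have varied roles. Rasgef1b, which encodes an exchange factor for Ras-family GTPases, rose by 1.13 (SE 0.11), and the angiomotin gene Amotl2, a regulator of YAP, by 0.70 (SE 0.06). Tiparp, a mono-ADP-ribosyltransferase (0.68), the cyclin gene Ccnl1 (0.65), the MAP kinase phosphatase Dusp16 (0.65), the mRNA decay factor Zfp36l1 (0.64) and the clock repressor Bhlhe40 (0.64) also rose. Their adjusted p-values in limma were 0.0013 or lower, and all 7 kept the call when any 1 array was left out. Ccnl1 stood at 0.27 with forskolin alone, not called (adjusted p = 0.28), and was 0.38 higher with both compounds than with forskolin alone (adjusted p = 0.021). Prp2 (0.68) was called with all arrays but not without any 1 array other than AICAR replicate 1 (adjusted p up to 0.11), and 1 olfactory receptor gene made up the count. Mir99a and its host Mir99ahg, described with the microRNAs, complete the 18. Just under 1.5-fold lay, among others, Nfil3, a clock and cytokine-linked repressor (0.58), the FOXO target Ccng2 (0.57), and Fdx1, the electron donor of the mitochondrial steroid-making enzymes (0.56).

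Read against the background of 3.04% of genes called higher, the cAMP lists held many members above control. Of 31 measured cAMP and CREB targets, 10 rose, 2 fell (Inhba and Cited2) and 19 did not pass the test, and the 12 calls held whichever array was left out. The median over the list was 0.17, against 0.02 over all genes. Of 32 immediate early genes, 7 rose, 2 fell (Klf10 and Ier2) and 23 did not pass. Fos, Fosb, Fosl2, Junb, Egr1, Nr4a1 and Nr4a3 rose and kept their calls, while those of Klf10 and Ier2 were lost without control replicate 2 or 3. Without AICAR replicate 1 the calls numbered 14 in the immediate early list and 19 in the cAMP list. The lists share Nr4a1, Nr4a3, Fos and Fosb. Of 39 genes of cAMP signalling and feedback, which encode cyclases, phosphodiesterases, kinase subunits and anchors, only Sik1 rose and Akap1 fell (−0.18). The Akap1 call needed all 3 control arrays and AICAR replicate 2 (adjusted p up to 0.11 otherwise).

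**Figure D2:**
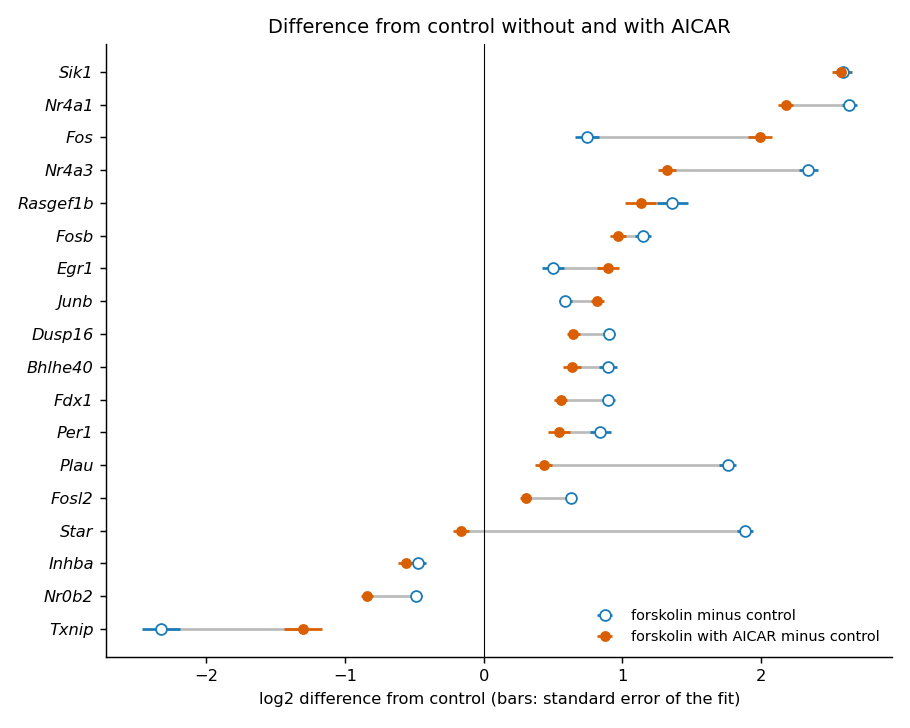
Log2 difference from the 3 control arrays with forskolin alone (open circles) and with both compounds (filled circles), with the standard error of the fit, for 18 genes. Sik1 sits at the same height in both, Fos is higher with both compounds, Star and Plau lie near or slightly above control only with both compounds, and Txnip lies below control in both; the 2 differences of a gene share the control arrays.

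Some transcripts far above control with forskolin alone were at or near control with both compounds. Star, whose protein carries cholesterol into mitochondria and so limits the rate of steroid synthesis, had log2 values of 8.57, 8.61 and 8.56 in control and 8.47, 8.38 and 8.40 with both compounds. The groups did not overlap, but the difference of −0.16 (SE 0.06) did not pass the test (adjusted p = 0.11), and forskolin alone had 1.89. Plau, which encodes urokinase, the protease that activates plasminogen, had values of 8.23, 8.36 and 8.17 in control and 8.73, 8.59 and 8.73 with both compounds. It remained 1.35-fold above control (0.43, SE 0.06, adjusted p = 0.003), against 1.76 on the log2 scale with forskolin alone. The phosphatase gene Dusp1 (−0.19, adjusted p = 0.052; 0.64 with forskolin alone) and the stress gene Gadd45b (−0.04, adjusted p = 0.61; 0.58 with forskolin alone), both named after their values were seen, did not pass. Of 17 measured steroidogenesis genes Fdx1 alone was called (5.88%, against 8.72% of all genes). It rose, with values of 9.76, 9.75 and 9.86 in control and 10.31, 10.31 and 10.42 with both compounds (SE 0.05, adjusted p = 0.00032). For Fdx1 forskolin alone had 0.90, and the direct difference between the treated groups was −0.34 (adjusted p = 0.0033 in limma). The side-chain cleavage enzyme Cyp11a1 (−0.01, adjusted p = 0.94), Cyp17a1 (−0.05, adjusted p = 0.76) and Hsd3b1 (−0.37, SE 0.14, adjusted p = 0.11) did not pass.

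Of 29 transcription factor genes of steroidogenic cells 3 rose and 3 fell (20.7% called, against 8.72% of all genes). Nr0b2, which encodes the repressor SHP, had very even control values of 10.12, 10.13 and 10.12 and values of 9.21, 9.27 and 9.36 with both compounds. It fell by 0.84 (SE 0.04, adjusted p = 1.4e-05), further than with forskolin alone (−0.48). Sox9, the factor that directs Sertoli cell fate, fell from 9.96, 9.82 and 9.87 to 9.38, 9.31 and 9.28 (−0.56, SE 0.05, adjusted p = 0.00043), and forskolin alone had −0.10. It was the only one of 12 measured Sertoli cell markers called, and the mean over that list was 7.92 to 7.99 in control arrays and 7.90 to 8.02 in arrays with both compounds. The nuclear receptor gene Nr2f2 fell by 0.34, a call that needed both control replicates 2 and 3 (adjusted p up to 0.062 otherwise). Neither Nr5a1 (−0.10, adjusted p = 0.1), the master regulator of steroidogenic cells, nor Nr0b1 (−0.09, adjusted p = 0.18) nor Crem (0.06, adjusted p = 0.4) passed the test.

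Below control, and apart from 1 histone gene, the named protein-coding gene with the largest fall was Txnip, whose protein binds thioredoxin and limits glucose uptake. Its log2 values were 10.23, 10.47 and 10.57 in control and 9.21, 9.09 and 9.07 with both compounds. It was 2.47-fold lower (−1.30, SE 0.14, adjusted p = 0.00077), although forskolin alone had left it further down, at −2.33. Gdpgp1, which encodes a phosphorylase of GDP-glucose, fell from 8.96, 9.07 and 9.01 to 7.72, 7.78 and 7.94, or 2.3-fold (−1.20, SE 0.06, adjusted p = 1.4e-05). With forskolin alone it was not called. Ccnyl1 (−0.86), Spaca6 (−0.86), Ankrd49 (−0.86) and the zinc finger gene Zfp518a (−0.91) followed, each with an adjusted p of 0.0028 or lower. All of these falls kept the call without any 1 array. The antisense transcript Phtf1os (−0.93) did not, since leaving out control replicate 3 or AICAR replicate 2 ended its call (highest adjusted p 0.068). Of the 11 genes at least 2-fold lower, the others were 3 unnamed transcripts, 1 replication-dependent histone gene, 3 microRNA genes and 2 numbered Zfp genes.

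The gene class with the highest share of falls was that of the numbered Zfp genes, many of which encode zinc finger repressors with a KRAB domain. Of 317 tested, 112 fell and 5 rose (36.9% called, against 8.72% of all genes), and they made up 30 of the 119 falls of at least 1.5-fold. Their median difference was −0.17, with quartiles at −0.37 and −0.01, and with forskolin alone the median was −0.01. All 3 arrays with both compounds lay below all 3 controls in 155 of the 317 genes and above them in 17. Over all genes these shares were 14.3% and 15.2%. Zfp719 had values of 8.63, 8.81 and 8.73 in control and 7.84, 7.77 and 7.51 with both compounds (−1.02, SE 0.10, adjusted p = 0.00051). Zfp418 (−0.94), Zfp40 (−0.89) and Zfp39 (−0.89) fell nearly as far. Zfp229 (−1.01) and Zfp455 (−0.85) were less even and lost their calls when control replicate 2 or 3 or AICAR replicate 2 was left out, as Zfp229 did with control replicate 1 and Zfp455 with AICAR replicate 3 (highest adjusted p 0.13 and 0.1). Of the 112 falls 55 held without any 1 array and of the 5 rises none did. The number called in the class was 67, 64 or 63 without control replicate 2, control replicate 3 or AICAR replicate 2, and falls were the majority each time (66, 64 and 62).

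**Figure D3:**
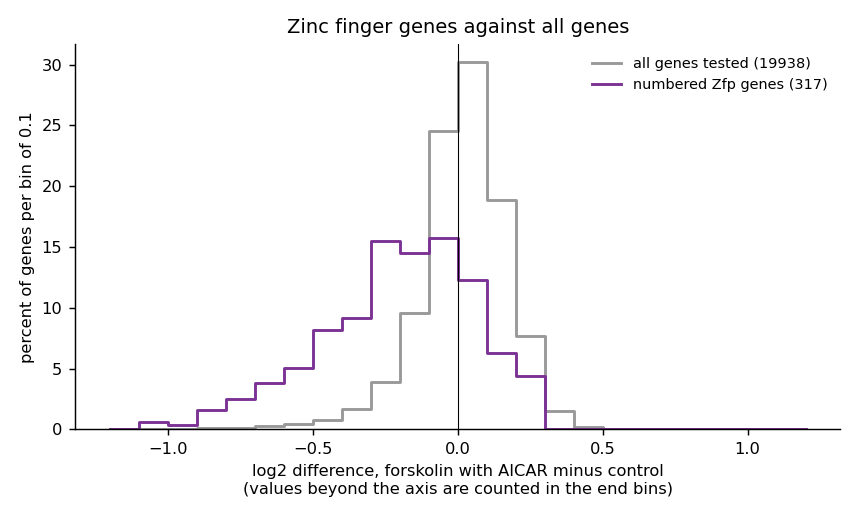
Share of genes per 0.1 of log2 difference between cells with both compounds and control, for 317 numbered Zfp genes (purple) and all 19938 genes tested (grey). The Zfp genes are displaced to the left of all genes, with a median of −0.17 against 0.02, and have a long lower tail.

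The imprinted Dlk1-Meg3 region, from which long noncoding RNAs and a large cluster of microRNAs are transcribed on the maternal chromosome, held the second group of falls. Of 45 measured RNAs of the region 17 fell, none rose and 28 did not pass the test (37.8% called, against 8.72% of all genes). Their median was −0.23, and in 26 all arrays with both compounds lay below all controls (14.3% of all genes did). Mir127 had values of 9.07, 8.92 and 8.92 in control and 7.85, 7.79 and 7.85 with both compounds, a fall of 2.21-fold (−1.14, SE 0.05, adjusted p = 5.2e-06). Mir379 went from 6.22, 5.94 and 6.23 to 5.33, 4.70 and 4.60 (−1.26, SE 0.20, adjusted p = 0.0067). Its neighbour Mir411, named here because it shares the seed AUGUAAC, went from 5.83, 5.93 and 6.09 to 5.08, 5.11 and 5.25 (−0.80, SE 0.08, adjusted p = 0.00064). With forskolin alone these 3 genes lay 0.11, 0.07 and 0.02 above the same controls, none of them called. Mir323 (−0.84) kept its call without any 1 array, while Mir380 (−1.12) and Mir329 (−0.90) lost theirs without AICAR replicate 2 (adjusted p = 0.052 and 0.05).

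The long RNAs of the region differed from one another. Rian, a noncoding RNA that hosts small nucleolar RNAs, fell from 9.74, 9.55 and 9.63 to 9.12, 9.02 and 9.02 (−0.59, SE 0.07, adjusted p = 0.0011). Meg3, from the same strand, did not pass (−0.10, SE 0.06, adjusted p = 0.25). The protein-coding genes of the other parental allele, Dlk1 (0.03, adjusted p = 0.62), Rtl1 (−0.15, adjusted p = 0.13) and Dio3 (0.27, SE 0.15, adjusted p = 0.25), did not pass either. Of the 17 falls 10 held whichever array was left out, and the call count was 10 without AICAR replicate 2. The small RNAs of the region are cut from shared precursors, so the members are not independent of each other.

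**Figure D4:**
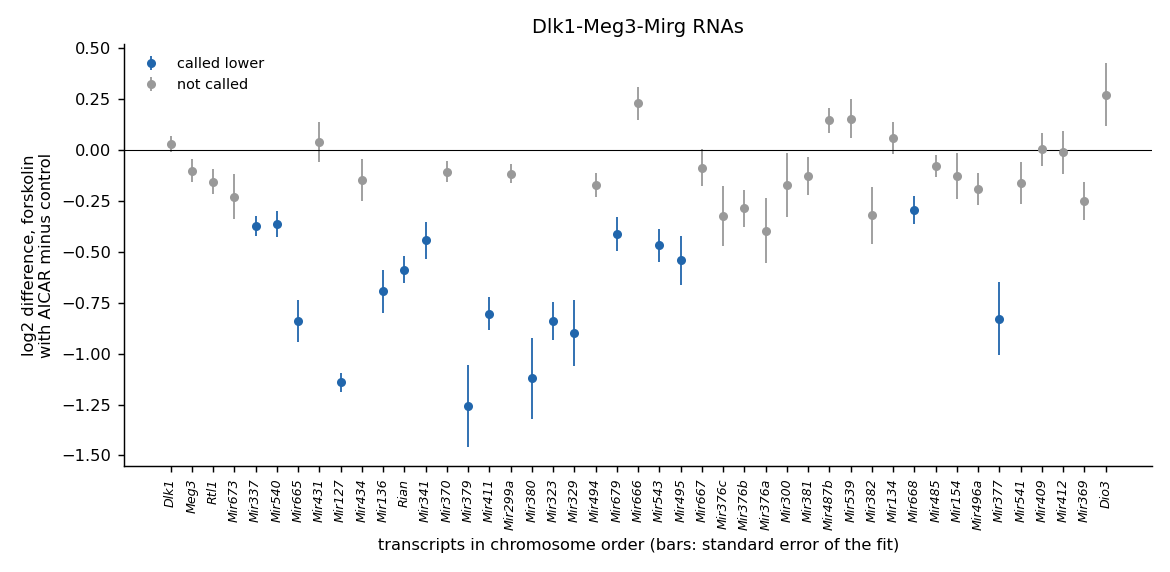
Log2 difference between cells with both compounds and control for RNAs of the Dlk1-Meg3 region, in chromosome order, with the standard error of the fit; blue marks the 17 called lower and grey those not called. Mir379, Mir127 and Mir380 hold the lowest points, while Dlk1 and Meg3 at one end and Dio3 at the other lie near or above 0. Low points do not form an unbroken block, since Mir299a between Mir379 and Mir380 (−0.12) was not called.

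The other 256 microRNA genes held 15 rises and 14 falls with a median of 0.06. Of all genes 3.04% were called higher and 5.68% lower, and the falls among these microRNA genes were at about that share. Of their calls, 1 of the rises and 11 of the falls held without any 1 array. By contrast, the 40 microRNA genes of the imprinted region held 16 falls and no rise (median −0.27). Mir99a rose from 7.39, 7.31 and 7.42 to 8.28, 8.02 and 8.03 (0.73, SE 0.09, adjusted p = 0.0014), and forskolin alone had −0.21. It was the rise that held. Its host transcript Mir99ahg was called higher through the brightest of its 4 probes (0.66), but the others differed from control by −1.04, −0.26 and 0.16, so the direction of the host is unsettled. Within the family with the seed ACAUUCA, Mir181b-1 fell from 7.29, 7.47 and 7.63 to 6.87, 6.35 and 6.54 (−0.88, SE 0.12, adjusted p = 0.0033) and Mir181b-2 fell by 0.60. Mir181d was higher by 0.33, a call lost without any 1 array but AICAR replicate 1 (adjusted p up to 0.17). With the seed GAGGUAG, Mirlet7e fell (−0.39, SE 0.06, adjusted p = 0.0035), while Mirlet7d (0.45) and Mirlet7a-1 (0.20) were called higher. The Mirlet7d call needed control replicates 1 and 2 and AICAR replicate 2 (adjusted p up to 0.11 otherwise). Over all 296 microRNA genes 45 were called with all arrays (15.2%, against 8.72% of all genes). The calls numbered 27 without control replicate 3, 91 without AICAR replicate 1 and 22 without AICAR replicate 2.

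Several genes that control the release of paused RNA polymerase II fell with both compounds. P-TEFb, the kinase that frees the polymerase, is held inactive in a particle of 7SK RNA with the proteins of Hexim1 and Mepce. Mepce fell from 9.74, 9.70 and 9.76 to 9.13, 9.08 and 8.88 (−0.71, SE 0.06, adjusted p = 0.00035), and Hexim1 from 9.47, 9.49 and 9.58 to 8.92, 8.94 and 8.69 (−0.66, SE 0.07, adjusted p = 0.00061). The elongation kinase Cdk12 (−0.61) and the bromodomain gene Brd2 (−0.27) also fell, and all 4 held without any 1 array. With forskolin alone none of them was called. These were 4 of 25 measured members (5.68% of all genes were called lower), the list's median was −0.03, and the call of Ccnt2 (0.27 higher) was lost when any 1 control array or AICAR replicate 2 was left out (adjusted p up to 0.13).

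Regulators of growth factor and cell-contact signalling were found on both sides of control. Shares called were 19.2% for Notch genes, 42.1% for MAP kinase phosphatase and Sprouty genes and 22.2% for Kelch-BTB adaptors, against 8.72% of all genes. The Notch ligand Dll1 fell from 9.05, 8.98 and 8.99 to 8.30, 8.18 and 8.19 (−0.78, SE 0.05, adjusted p = 6.9e-05), where forskolin alone had 0.19, not called. Nrarp, a feedback inhibitor that Notch induces, fell by 0.34 (adjusted p = 0.0061), and these were the 2 of 4 falls among 26 Notch genes that held without any 1 array. Errfi1, an inhibitor of the EGF receptor, fell from 10.48, 10.47 and 10.48 to 9.88, 9.71 and 9.80 (−0.68, SE 0.04, adjusted p = 7.5e-05). It was counted with 19 MAP kinase phosphatase and Sprouty genes, feedback inhibitors of that cascade, of which 5 rose and 3 fell. Dusp16, Dusp5 (0.28) and Errfi1 held without any 1 array, whereas the rise of Dusp4 (0.39) was lost without control replicate 3 (adjusted p = 0.053). Inhba, which encodes the activin subunit, fell by 0.56 (SE 0.06, adjusted p = 0.00077) and the inhibitory Smads of the same pathway rose, Smad7 by 0.48 and Smad6 by 0.41, each with forskolin alone on the same side of control (−0.47, 0.30 and 0.20). Of the Kelch-BTB adaptors, which select substrates for ubiquitin ligases, Kbtbd8 (−0.86) and Kbtbd7 (−0.68) fell and held, out of 27 measured.

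**Figure D5:**
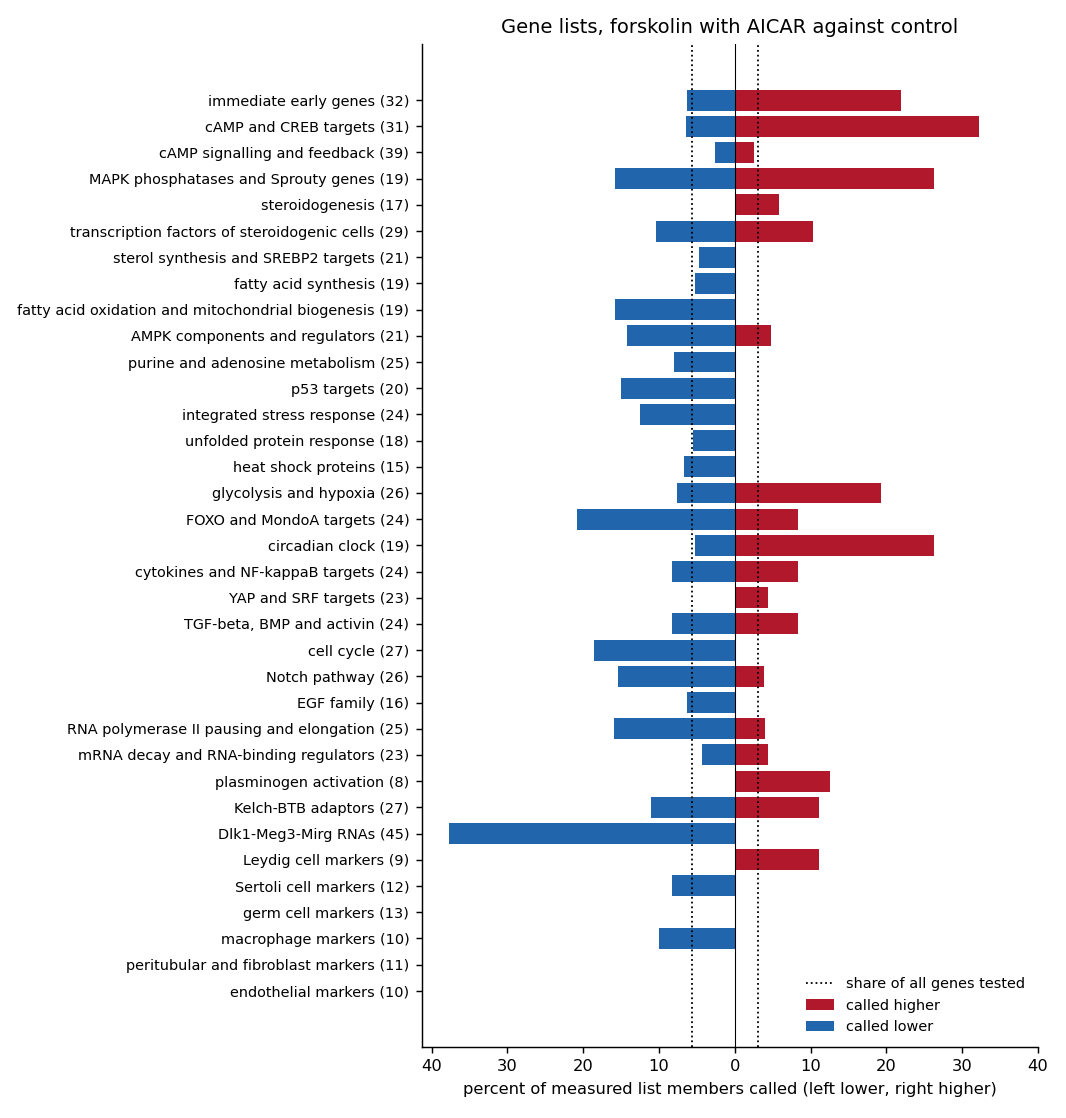
Percent of the measured members of each gene list called higher (right, red) or lower (left, blue) in cells with both compounds than in control, with the number measured in parentheses; dotted lines mark the 3.04% and 5.68% of all genes called higher and lower. With all arrays, rises stand out in the cAMP and CREB target, immediate early, MAP kinase phosphatase and clock lists, and falls in the list of Dlk1-Meg3-Mirg RNAs. Of the 5 MAP kinase phosphatase rises 2 held without any 1 array, and the direction of the clock list depended on the setting. Lists share members and many bars rest on few genes.

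Some transcripts of sugar use and oxygen response rose. Shares called were 26.9% for glycolysis and hypoxia, 29.2% for FOXO and MondoA targets and 31.6% for clock genes, against 8.72% of all genes. Of all genes 3.04% were called higher and 5.68% lower. Of 26 glycolysis and hypoxia genes 5 rose and 2 fell (7 and 0 after quantile normalization), and 4 of the rises held. These were Adm, the gene of a vasodilator peptide (0.45, SE 0.08, adjusted p = 0.0097), the hypoxia-induced Ankrd37 (0.44), the glucose-trapping hexokinase Hk2 (0.36) and the angiogenic factor Vegfa (0.36). Vegfa had values of 11.51, 11.45 and 11.53 in control and 11.91, 11.82 and 11.82 with both compounds. Epo rose by 0.55 with all arrays (adjusted p = 0.024), but its call needed control replicates 1 and 2 and AICAR replicates 2 and 3 (adjusted p up to 0.073 otherwise). Among 24 FOXO and MondoA targets, Txnip, the transcriptional repressor Bcl6 (−0.65, SE 0.05, adjusted p = 0.00011), the ubiquitin ligase gene Fbxo32 (−0.28), Cited2 and Gadd45a fell and held, and Ccng2 rose and held. Ccng2 went from 8.71, 8.83 and 8.82 to 9.41, 9.19 and 9.46, whereas Bcl6 went from 9.76, 9.76 and 9.79 to 9.17, 9.07 and 9.10, so targets of the same factors lay on both sides. Of 19 clock genes, 5 rose and 1 fell. Bhlhe40, Nfil3 and Per1 (0.55, SE 0.08, adjusted p = 0.0039) rose, Ciart fell (−0.26), and these 4 calls held. The clock list had 3 rises and 4 falls after median centring, and 4 rises and 6 falls with array weights.

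In the lists of AMPK and lipid metabolism most calls were falls that did not hold. The share called was 19.0% for AMPK components and 15.8% for fatty acid oxidation, against 8.72% of all genes. Below that share were sterol synthesis (4.76%), fatty acid synthesis (5.26%) and purine and adenosine genes (8.0%). Of 21 AMPK components and regulators, Fnip1, a partner of folliculin and AMPK, rose (0.32, SE 0.05, adjusted p = 0.0094) and held. Prkaa1, the catalytic subunit (−0.24), Prkag3 (−0.24) and Prkab1 (−0.20) were called lower, but each lost the call when control replicate 2, control replicate 3 or AICAR replicate 3 was left out (adjusted p up to 0.12). Of 21 sterol synthesis genes only Insig1, the brake on sterol synthesis, fell (−0.25, SE 0.03, adjusted p = 0.0026). Of 19 fatty acid synthesis genes Fasn (−0.15), and of 19 fatty acid oxidation genes Sirt1 (−0.24), Ppara (−0.17) and Cpt1a (−0.16), were called lower with all arrays. All 4 calls were lost when any control array or AICAR replicate 2 was left out (adjusted p up to 0.15). Of 25 purine and adenosine genes, the nucleoside transporter Slc29a2 fell and held (−0.25, SE 0.04, adjusted p = 0.0078), although not after quantile normalization, and the fall of Ada (−0.15) was lost unless every array but AICAR replicate 1 was kept (adjusted p up to 0.14).

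With all arrays and the settings used here, the calls in the stress lists were falls, at shares of 15.0% for p53 targets, 12.5% for the integrated stress response, 6.67% for heat shock proteins and 5.56% for the unfolded protein response, against 5.68% of all genes. Other settings gave rises too: 1 heat shock gene higher and 0 lower after quantile normalization, and 3 p53 targets higher and 5 lower without AICAR replicate 1. Among 24 genes of the integrated stress response, Ddit3, which encodes CHOP, fell from 8.63, 8.67 and 8.85 to 8.31, 8.05 and 8.09 (−0.57, SE 0.08, adjusted p = 0.0033), and Nupr1 fell by 0.28. Of 20 p53 targets Pidd1 (−0.54, SE 0.05, adjusted p = 0.00061) and Gadd45a (−0.28) fell and held. The single calls of the unfolded protein response (Xbp1, −0.21) and of the heat shock proteins (Dnajb1, −0.20) were lost on leaving out control replicate 2, control replicate 3 or AICAR replicate 2, and for Dnajb1 also AICAR replicate 3 (adjusted p up to 0.091). Of 27 cell cycle genes 5 were called lower, E2f2 furthest (−0.27), and none of these calls held without every single array (E2f2 up to adjusted p = 0.066, on leaving out control replicate 1, control replicate 2 or AICAR replicate 2). Of the other marker lists, no germ cell, peritubular and fibroblast or endothelial gene was called, and the macrophage marker Cd68 (−0.28) needed both control replicates 2 and 3 for its call (adjusted p up to 0.11 otherwise). The mean over the 11 peritubular and fibroblast markers was nonetheless 6.59 to 6.67 in control arrays and 6.70 to 6.85 with both compounds, without overlap, and all 11 differences were above 0 (median 0.14). The germ cell list did not overlap either, at 5.92 to 5.95 and 5.96 to 6.02. The macrophage list (5.95 to 5.97 and 5.93 to 6.09) and the endothelial list overlapped between the groups. The part of these shifts in other results was not tested.

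Genes that moved furthest had shorter spans in the median. Over all tested genes in the RefSeq table the median span from start to end of the gene was 17.7 kb. It was 9.58 kb for the genes that fell at least 1.5-fold and 9.49 kb for those that rose as far. Among protein-coding genes the median was 19.2 kb for all tested and 12.2 kb for the falls (9.88 kb without the numbered Zfp genes). These spans describe the lists and were not tested.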

How the data were processed

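Total RNA of each sample was measured on 1 of 9 Affymetrix whole-transcript arrays. The authors deposited log2 values, 1 per transcript cluster (a probe in this text), made with RMA and Partek per the submitters' processing notes. Versions, settings and genome build are not given in the sources used here. Of 35557 probes, 21789 carried 1 gene symbol, 1621 several and 12147 none listed. Probes with 1 symbol were kept, for each gene the one with the highest mean over the 9 arrays (999 genes had several), which left 19938 genes. There was no filter on low values. One limma 3.58.1 model (R 4.3.3) was fitted to all 9 arrays by group, with moderated two-sided tests and Benjamini-Hochberg adjustment over all genes. The model was also run on simulated data with independent noise for each gene and array. The real arrays shared a main axis of deviations, so that run is no support for the calls. Precision is limited by the number of arrays.

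Named were the 15 largest rises and falls among called genes without overlap between the groups (unnamed transcripts, small RNAs, receptors of smell and histones only counted), up to 5 called members of each of 35 gene lists, the 6 largest rises and falls of microRNA genes, and 13 genes chosen by name; 1 of the genes under this rule is not reported here. Genes added to these are Dusp1, Gadd45b, Mir411, Mir181b-2, Mirlet7a-1, Mirlet7e, Meg3, Dlk1, Rtl1, Dio3 and further list members that complete a count. The members and lists were chosen with earlier results of these data known. Alternatives were a replicate block, a filter at a mean log2 value of 5, quantile normalization, median centring, a trended and robust prior, only the 6 arrays compared, array weights, the mean of a gene's probes, and arrays left out. Sequences and gene spans were read from RefSeq tables of GRCm38.p6, which matched 19856 genes. The other software was Python 3.11.15 with matplotlib 3.10.9, numpy 2.4.6 and pandas 2.3.3.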

Additional observations from a re-analysis of the deposited data

How the results depend on the processing

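The count of genes changed with both compounds against control was 1739 and depended on the setting. It was 758 with only the 6 arrays compared, 6619 with array weights, 660 to 4741 with 1 array left out, and 377 without replicate 3 of every group, an alternative chosen after seeing the data. The count of genes changed at least 1.5-fold was 137, 112 to 204 with 1 array left out and 88 without replicate 3 of every group. Under the other settings both counts were within 1.5 times the values given, except for the block. A similar count did not mean the same genes. After quantile normalization 1089 of the 1739 calls and 136 of the 137 larger ones were kept in the same direction. Calls that ended there include the falls of Akap1, Fasn, Ppara and Ada. Quantile normalization gave 39.1% of changed genes higher and median centring 30.1%, against 34.8%. With the replicate number as a block, 874 genes changed (195 higher, 679 lower) and 127 at least 1.5-fold. The labels do not say that a number marks a shared batch. Deviations of same-numbered arrays correlated at −0.37, 0.01 and −0.40 for control and AICAR and at 0.24, 0.01 and 0.33 for control and forskolin. Arrays with different numbers reached 0.49 (control replicate 3 with AICAR replicate 1). The numbers were therefore not taken as pairs. Of the 124 genes named by rule 113 were called. Over these 113 and 15 alternatives the log2 difference kept its sign in all but 1 case. That case was Mir99ahg, which was −0.12 (adjusted p = 0.36 in limma) with the mean of its probes. Sign changes of genes that were never called were not counted. The 113 called genes lost the call in 338 further cases. No deposited detection calls were used, so signal over background is unknown here.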
